A study of Mus musculus with 6 samples.

Results

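The Dlk1-Dio3 imprinted locus lies on mouse chromosome 12 and is described here by 8 genes: the long noncoding RNAs Meg3, Rian and Mirg, the small nucleolar RNA (snoRNA) gene Gm24564, the protein-coding genes Dlk1, Rtl1 and Dio3, and the neighbouring gene Begain. The members were chosen by name, with their values in these same 6 libraries already known, so the difference between genotypes is given for them as a description and carries no test. They are 8 of the 54532 gene identifiers in the deposited table. RNA-seq was run on heart ventricles of mouse embryos at E12.5 (days of embryonic development), with 3 libraries from control embryos and 3 from conditional knockouts of LSD1, the histone demethylase encoded by Kdm1a. The genotype behind the word control, the Cre driver, the cells in which the gene was deleted and any pooling of embryos are not given in the labels. They do not say whether the libraries of one genotype are separate embryos or litters, so a p-value here measures the spread between libraries, which may be technical.

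Imprinted genes are transcribed mainly from the chromosome of 1 parent. At this locus Dlk1, Rtl1 and Dio3 are transcribed from the paternal chromosome. From the maternal chromosome comes a series of noncoding RNAs that starts at Meg3, runs through Rian and Mirg, and carries large clusters of C/D box snoRNAs and microRNAs. The choice between the sets is set by DNA methylation of a control region between Dlk1 and Meg3, which is laid down in the male germ line and maintained afterwards. The expression values add both alleles together, so parental origin was taken as background and was not measured.

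All 8 members mapped to chromosome 12 in the GENCODE M21 annotation of GRCm38 (mm10), within 1249 kb from the start of Begain to the end of Dio3. Values are FPKM, fragments scaled to exon length and to a library total, which allow levels to be compared between genes per unit length. Whole reads could be recovered from the steps between values, and they summed to 17896744 to 20073992 per library. Kdm1a, which checks the labels, stood at 29.99, 29.7 and 22.8 FPKM in controls 1, 2 and 3 and at 10.7, 11.8 and 10.96 FPKM in knockouts 1, 2 and 3. Its log2 change was -1.22 (SE 0.11, limma adjusted p = 0.00274). The exact two-sided permutation test gave p = 0.1, the smallest that 3 libraries against 3 allow. Knockout 3 had 12.1 FPKM of Xist and 0 of the Y-linked Ddx3y. Knockout 1 had 1.11 FPKM of Xist beside 14.3 of Ddx3y, and the other 4 libraries had 0 to 0.0125 of Xist with 13.0 to 14.3 of Ddx3y. Sex was therefore not balanced between the groups. Control 3 stood apart from controls 1 and 2 in 12 summed markers of fibroblasts, cushion and mesenchyme (603 FPKM against 395 in each), and in its haemoglobin share of all FPKM (4.32% against 1.98% and 2.74%). All 15 ventricular cardiomyocyte markers were detected, with sums of 14630 to 18880 FPKM in controls and 15865 to 17368 FPKM in knockouts.

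Of the 14149 genes averaging 0.5 FPKM or more, limma on log2(FPKM + 1) called 336 (2.37%) at an adjusted p under 0.05, 270 higher in the knockout (1.91%) and 66 lower (0.466%). Of the 8 members, 6 passed that minimum and 2 of these were called: Rian, which was higher in the knockout, and Gm24564, which was lower. The same 2 were the members whose groups did not overlap, against 21.4% of all genes tested. Since these values also chose the members, nothing is read from those counts. Begain, Dlk1, Meg3 and Mirg passed the minimum with overlapping groups, and Rtl1 and Dio3 were below it. The median log2 change was -0.04 over the 6 members tested and -0.01 over all genes tested. In whole ventricles, fewer cells of a type and less RNA per cell cannot be told apart.

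**Figure D1:**
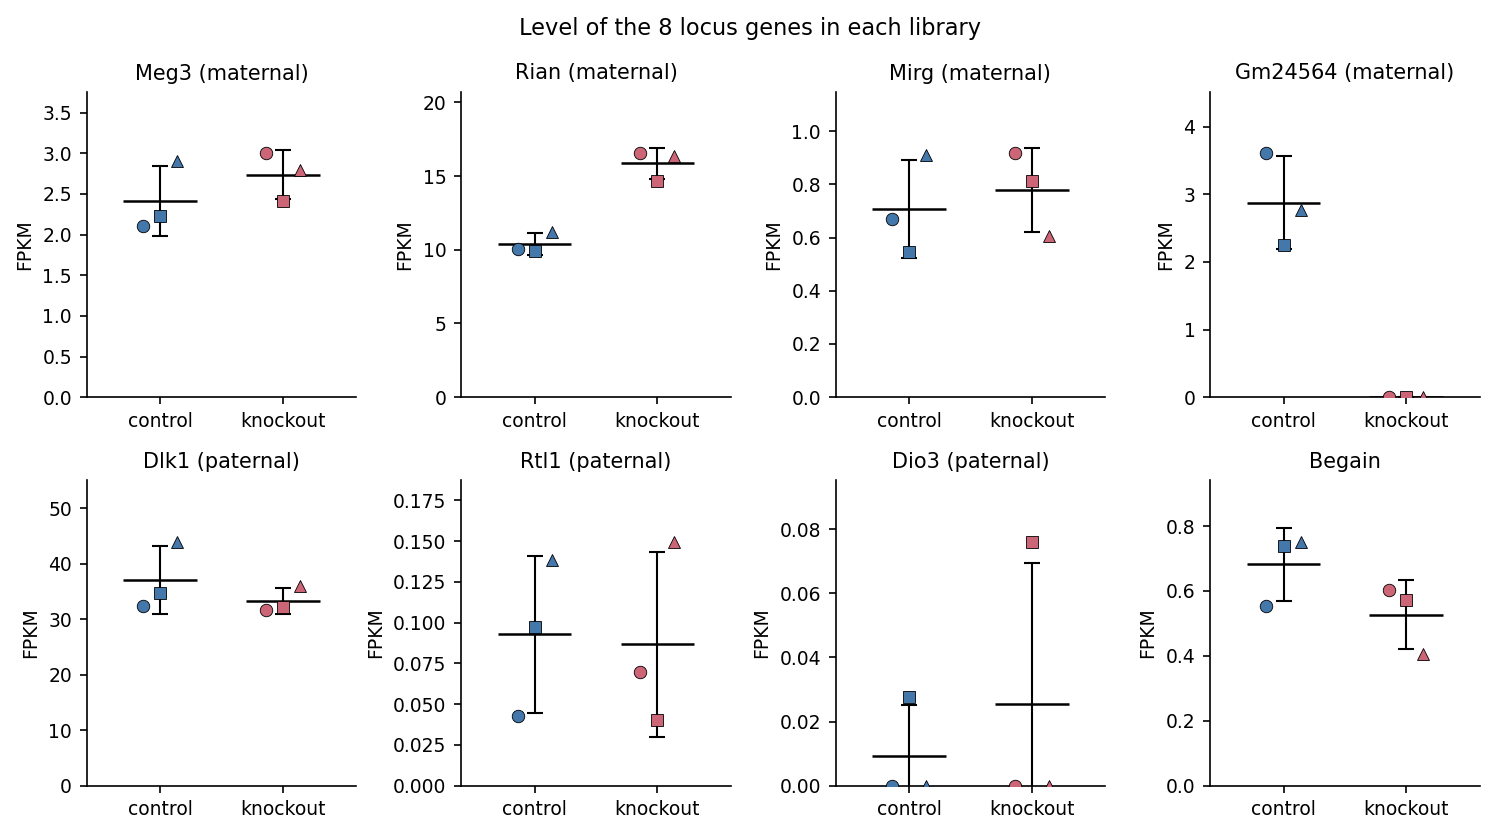
FPKM of the 8 locus genes in each library, 1 panel per gene with its own linear axis from 0. Points are libraries (circle, square and triangle for replicates 1, 2 and 3), long lines are group means and error bars are SD (n = 3). The knockout libraries stand above every control for Rian and at 0 for Gm24564, while the groups overlap in the other 6 panels.

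The promoter windows of Meg3 and Rian are shown because both RNAs are read from the maternal chromosome on the plus strand, and of this pair only Rian had groups that did not overlap. Each window runs from 250 bases before the RefSeq start to 50 bases after it (GRCm38.p6, plus strand, 5′ to 3′). The capitals mark matches, on either strand, to TGACGTCA (the palindromic cAMP response element) and to TATATAA (a variant of the TATA box). They also mark TGCCGC (the core bound by the imprint factor ZFP57 when methylated), the CCAAT box and TATAAA (the usual TATA box).
Meg3, chr12:109540746-109541045: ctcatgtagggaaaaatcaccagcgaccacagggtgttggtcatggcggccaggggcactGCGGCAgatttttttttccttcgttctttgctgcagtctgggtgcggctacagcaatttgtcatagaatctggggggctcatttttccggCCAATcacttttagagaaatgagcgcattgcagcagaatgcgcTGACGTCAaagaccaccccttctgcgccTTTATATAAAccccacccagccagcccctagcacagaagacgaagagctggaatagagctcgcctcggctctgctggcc
Rian, chr12:109603695-109603994: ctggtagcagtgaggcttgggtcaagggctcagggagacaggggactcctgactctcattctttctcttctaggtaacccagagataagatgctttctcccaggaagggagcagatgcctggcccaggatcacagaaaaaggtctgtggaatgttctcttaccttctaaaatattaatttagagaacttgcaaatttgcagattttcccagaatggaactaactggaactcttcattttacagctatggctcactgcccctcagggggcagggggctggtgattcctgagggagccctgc
In the Meg3 window TGACGTCA began 57 bases before the start, a motif that 1.79% of 32851 RefSeq promoter windows of that length hold. TATATAA began 27 bases before the start (3.24% of windows) and overlapped TATAAA at 25 bases (13.6%). CCAAT lay 100 bases before the start (37.4% of windows), and TGCCGC lay on the minus strand 190 bases before it (11.6%). The Rian window held none of the 5 motifs and no CpG, against 13 CpG in the Meg3 window shown and a median of 7 over all windows. RefSeq gives a second Meg3 start, whose window (chr12:109545148-109545447) held 1 CpG and none of the 5 motifs. A match or its absence describes these letters and not a bound factor. Whether transcription begins at the RefSeq start of Rian, which lies within the series that starts at Meg3, was not tested.

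Meg3, the first of the maternally expressed RNAs, is a nuclear long noncoding RNA that has been described as a partner of Polycomb repressive complex 2 (ENSMUSG00000021268, chr12:109541001-109571726, plus strand). It was measured at 2.11, 2.23 and 2.90 FPKM in controls 1, 2 and 3 and at 3.004, 2.41 and 2.80 FPKM in knockouts 1, 2 and 3. Control 3 was as high as the knockouts, and the groups overlapped. The means were 2.41 ± 0.427 FPKM in controls and 2.74 ± 0.300 FPKM in knockouts (SD, n = 3), a log2 change of 0.14 (SE 0.11). Without control 3 the control mean was 2.17 FPKM and the ratio of knockout to control was 1.26. Over the fits that left out 1 library, the log2 change ran from 0.07 without control 1 to 0.24 without control 3. Other annotated genes, among them the antisense gene Gm26906, cover 8.29% of the exon bases of Meg3, and the library kit does not mark strand, so reads of the 2 strands cannot be told apart there.

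Rian, the host of most of the C/D box snoRNAs described below, followed about 63 kb after the start of Meg3 (ENSMUSG00000097451, chr12:109603940-109661716, plus strand). It was the maternally expressed long noncoding RNA with the highest level per length, at 10.1, 9.89 and 11.2 FPKM in controls 1, 2 and 3 and at 16.6, 14.7 and 16.4 FPKM in knockouts 1, 2 and 3. Every knockout library lay above every control library, and the gap between the groups was wider than the spread within either. The means were 10.4 ± 0.719 FPKM and 15.9 ± 1.05 FPKM (SD, n = 3), a ratio of 1.53, with 0.57 (SE 0.08) as the log2 change. Each library held 3210 to 5459 reads of Rian, so counting error was small beside the spread between libraries. The limma call was kept in 3 of 6 fits that left out 1 library and lost without control 1, knockout 1 or knockout 3, with log2 changes of 0.53 to 0.62 over the 6 fits. It was also lost when a sex score built from Xist and Y-linked genes was a covariate, where the log2 change was 0.53.

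Rian also contains microRNA genes, and 3 of its mature microRNAs are shown because the host RNA had groups that did not overlap (RefSeq, GRCm38.p6, plus strand, capitals mark the seed, bases 2 to 8).
miR-341-5p: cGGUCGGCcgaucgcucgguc
miR-1188-5p: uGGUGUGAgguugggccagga
miR-370-3p: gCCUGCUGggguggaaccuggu
No seed was shared among them. A library of this kind does not measure mature microRNAs: the 73 microRNA genes within 500 kb of the locus held 4 reads in the 3 control libraries together and 11 in the 3 knockout libraries, with at most 3 reads of 1 gene in a library. RefSeq places 114 mature microRNAs between Begain and Dio3, 106 of them on the plus strand, with 26 inside Mirg, 13 inside Rtl1, 6 inside Rian and 3 inside Meg3.

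Mirg, the last long noncoding RNA of the series and the host of many microRNAs, was expressed at a low level (ENSMUSG00000097391, chr12:109729764-109749460, plus strand). It stood at 0.669, 0.547 and 0.909 FPKM in controls 1, 2 and 3 and at 0.918, 0.813 and 0.607 FPKM in knockouts 1, 2 and 3. High and low libraries occurred in both groups. The means were 0.708 ± 0.184 FPKM and 0.779 ± 0.158 FPKM (SD, n = 3), a log2 change of 0.06 (SE 0.12). Between 71 and 128 reads per library lay behind these values.

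Rian and Meg3, transcribed in the same direction on the same chromosome, were compared within each library as a ratio of FPKM, in which any scaling factor of a whole library cancels. The ratio of Rian to Meg3 was 4.77, 4.44 and 3.87 in controls 1, 2 and 3 and 5.51, 6.08 and 5.84 in knockouts 1, 2 and 3. All 3 knockouts lay above all 3 controls, with means of 4.36 ± 0.458 and 5.81 ± 0.281 (SD, n = 3). Of the reads of Meg3, Rian and Mirg together, Rian held 77.6% to 81.0% in controls and 83.2% to 84.4% in knockouts. The ratio of Mirg to Rian was 0.0665, 0.0553 and 0.0811 in controls and 0.0554, 0.0554 and 0.0371 in knockouts, and these groups overlapped. Over the 6 libraries, log2(FPKM + 1) of Meg3 had a Pearson r of 0.68 with Rian and 0.62 with Mirg, and Rian had an r of 0.36 with Mirg. These correlations describe 6 libraries that share 2 genotypes.

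**Figure D2:**
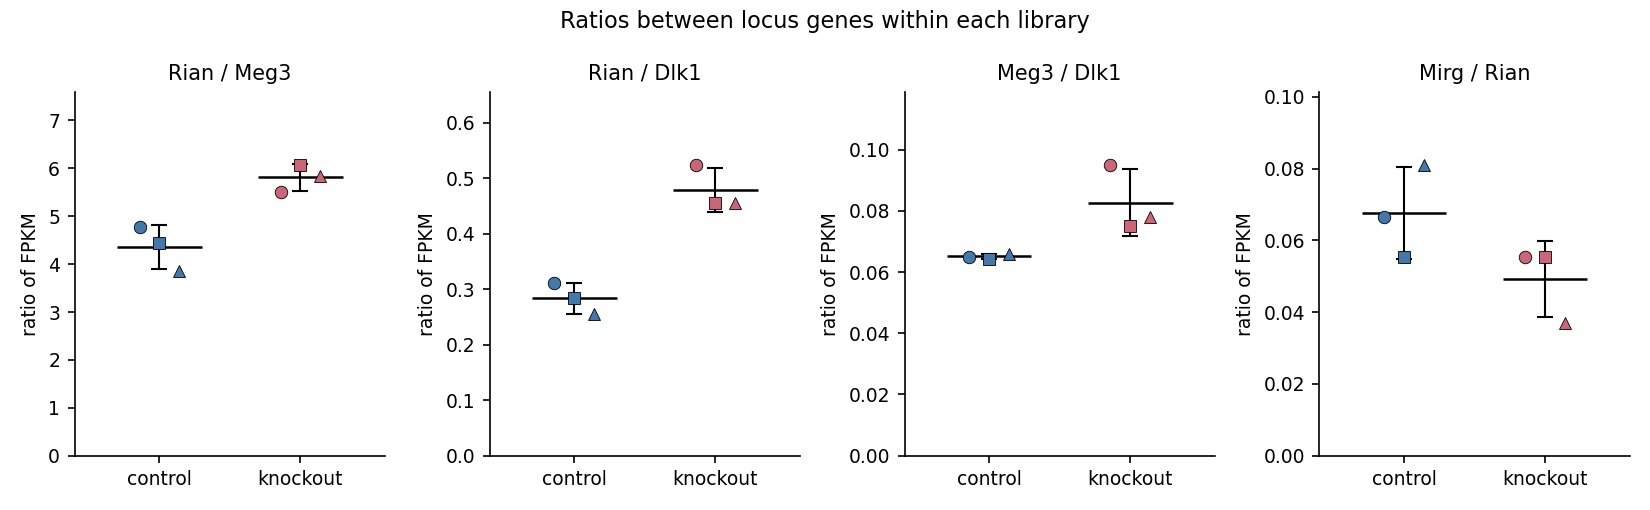
Ratios of FPKM between locus genes within each library, on linear axes from 0. Points are libraries (circle, square and triangle for replicates 1, 2 and 3), long lines are group means and error bars are SD (n = 3). Rian to Meg3 runs from 3.87 to 4.77 in controls and from 5.51 to 6.08 in knockouts, and Mirg to Rian overlaps between the groups.

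C/D box snoRNAs guide methylation of ribose in other RNAs and carry a C box near the 5′ end and a D box near the 3′ end. Those of this locus are mostly processed from introns of the maternal transcript. Of the 23 snoRNA genes annotated in the window, 4 had any read, and all 4 lie in introns of Rian. Their sequences are shown because they hold every read counted for a snoRNA of the locus (GENCODE M21 transcripts on GRCm38, plus strand, written as DNA, 5′ to 3′). The capitals mark the first TGATGA, the C box motif, and the last CTGA, the D box motif, on the strand shown.
Gm24564, chr12:109631074-109631148: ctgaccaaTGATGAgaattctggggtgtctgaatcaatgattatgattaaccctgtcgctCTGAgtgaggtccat
Gm23600, chr12:109643748-109643818: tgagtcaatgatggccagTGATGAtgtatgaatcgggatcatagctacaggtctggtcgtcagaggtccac
DQ267102, chr12:109656345-109656416: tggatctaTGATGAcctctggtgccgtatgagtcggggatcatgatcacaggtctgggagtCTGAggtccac
Gm25357, chr12:109657125-109657196: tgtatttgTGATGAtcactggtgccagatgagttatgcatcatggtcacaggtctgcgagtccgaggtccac
TGATGA occurred in 18 of the 23 genes and CTGA in 20, against 26.1% and 79.5% of all 1507 snoRNA genes of the annotation. Those 1507 were not limited to the C/D box class, so the shares do not compare this locus with other C/D box snoRNAs. Gm24564 and DQ267102 held both motifs, while Gm23600 and Gm25357 held TGATGA without CTGA. The last CTGA began at base 61 of 75 in Gm24564, further from the 3′ end than in DQ267102 (base 62 of 72). A match describes these letters and not a working box. The nearest other snoRNA of the locus differed from Gm24564 by 19 single-base edits, and no transcript of another gene held its whole sequence.

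Gm24564 (ENSMUSG00000064452), 75 bases long and 90.1 kb from the start of Meg3, was detected in each control library and in no knockout library. It stood at 3.61, 2.25 and 2.76 FPKM in controls 1, 2 and 3, and it was listed at 0 in knockouts 1, 2 and 3. Behind these values lay 5, 3 and 4 reads in the controls and 0 reads in the knockouts. The 12 control reads have an exact Poisson 95% interval of 6.20 to 20.96, which covers counting error only. A single read was worth 0.687 to 0.749 FPKM for a gene this short, and 3 reads over the knockout group, the limit that a count of 0 allows, stand for 0.724 FPKM. The control mean of 2.87 ± 0.689 FPKM (SD, n = 3) was 3.97 times that limit, with the counting error of the 12 control reads left out. The fitted log2 change was -1.94 at a pseudocount of 1 and -4.87 at a pseudocount of 0.1, so its size follows the pseudocount. Gm24564 passed the expression minimum only through the control group, so it had to differ. Its call was kept in all 6 fits that left out 1 library, which follows from the same 0 reads in every knockout and adds no support. It was not called by voom on the recovered reads, which weights genes by their depth.

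Among 71 tested genes with 8 to 16 reads over the 6 libraries, a range chosen after the values of Gm24564 were seen, 4 had no knockout read and 2 had no control read. DQ267102 had 1, 2 and 10 reads in controls 1, 2 and 3 and 2, 1 and 3 in knockouts 1, 2 and 3. Most of its control reads came from control 3, and its log2 change of -0.45 (SE 0.53) did not pass the test (limma adjusted p = 0.732). Gm25357 had 1, 2 and 1 reads in the controls and 0, 0 and 1 in the knockouts, with a limma adjusted p of 0.244. Gm23600 had 1 read in knockout 1, 1 in knockout 2 and 0 in every other library. Without Gm24564, the snoRNA reads of the locus numbered 2, 4 and 11 in controls and 3, 2 and 4 in knockouts, and the groups overlapped. The 10 snoRNA genes outside Rian and the 8 that lie in its exons had 0 reads in all 6 libraries. A read of those 8 also falls in an exon of Rian. How the submitters counted reads that fall in 2 genes is not known here, so a 0 in these 8 does not show absence. Of 67 snoRNA genes tested outside the locus, limma called 0 in either direction, 11 had an unadjusted p under 0.05, and voom called 0. The share of all genes tested under that unadjusted p is not given here, so no excess is read from the 11.

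**Figure D3:**
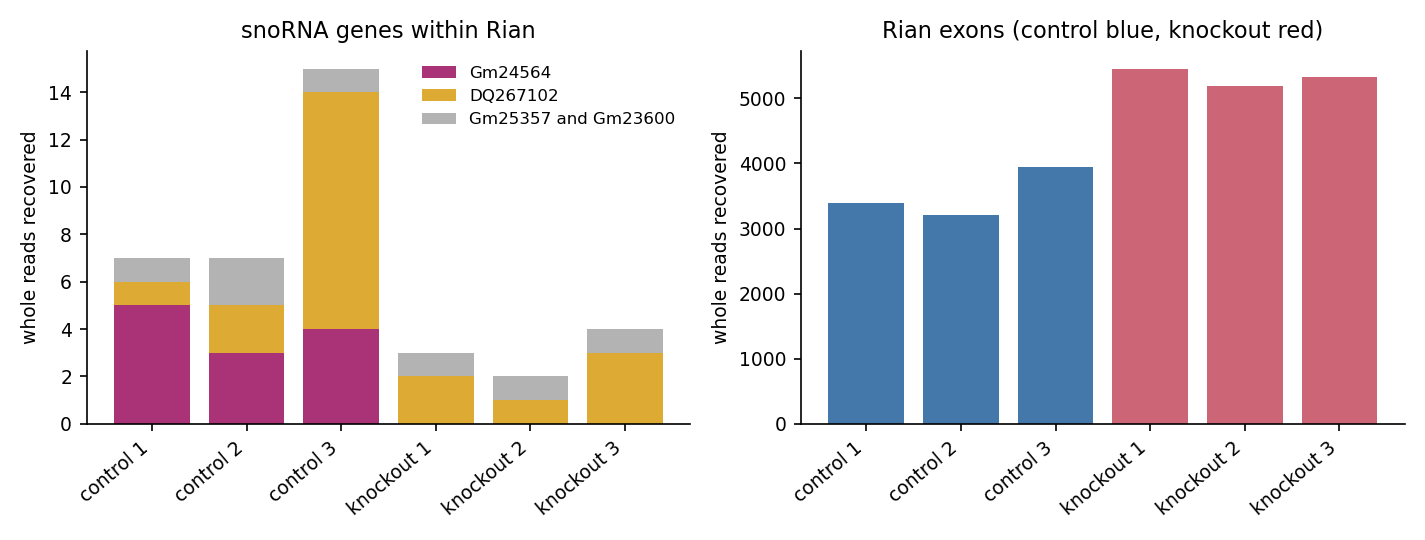
Whole reads recovered per library for the snoRNA genes within Rian (left, stacked by gene) and for the exons of Rian (right, controls blue and knockouts red), with bars from 0. Gm24564 has 3 to 5 reads in each control and 0 in each knockout, while Rian has 3210 to 3947 reads in controls and 5187 to 5459 in knockouts.

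The snoRNA was lower and its host higher in the knockout libraries, with 10543 control and 15973 knockout reads behind Rian and 12 control reads behind Gm24564. Reads of the mature snoRNA and reads of the Rian intron before splicing fall in the same interval and cannot be told apart.

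Dlk1, a transmembrane protein related to the Notch ligands and found on progenitor cells, had the highest level per length of the 8 genes (ENSMUSG00000040856, chr12:109452823-109463336, plus strand). It was measured at 32.4, 34.7 and 44.0 FPKM in controls 1, 2 and 3 and at 31.6, 32.2 and 35.9 FPKM in knockouts 1, 2 and 3. Control 3 was the highest library and the other 5 lay close together, so the groups overlapped. The means were 37.0 ± 6.12 FPKM and 33.2 ± 2.33 FPKM (SD, n = 3), a log2 change of -0.14 (SE 0.12). Without control 3 the control mean was 33.6 FPKM and the ratio of knockout to control was 0.99. The summed mesenchymal markers stood at 395, 395 and 603 FPKM in controls 1, 2 and 3 and at 420, 379 and 482 FPKM in knockouts 1, 2 and 3, with all 12 of the list detected and none called. They were highest in control 3 and, among the knockouts, in knockout 3, as Dlk1 was. The summed endothelial, erythroid and immune markers were highest in these same libraries too, and the sums of the other marker lists were not. The part of any of these cells in the level of Dlk1 was not tested.

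Rtl1, a gene derived from a Ty3/gypsy retrotransposon and needed in the placenta, was near the limit of detection (ENSMUSG00000085925, chr12:109589193-109600330, minus strand). It had 5, 11 and 17 reads in controls 1, 2 and 3 and 8, 5 and 17 in knockouts 1, 2 and 3, or 0.0405 to 0.150 FPKM. Low and high libraries occurred in both groups, with means of 0.0928 ± 0.0481 FPKM and 0.0866 ± 0.0565 FPKM (SD, n = 3). Maternal microRNAs are read from the opposite strand of Rtl1 and are known to direct cleavage of its RNA. Those of 6 such genes are shown because they are fully complementary to Rtl1 and the kit does not mark strand (RefSeq, GRCm38.p6, plus strand, capitals mark the seed, bases 2 to 8).
miR-431-5p: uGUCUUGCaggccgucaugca
miR-433-3p: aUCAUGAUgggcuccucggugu
miR-127-3p: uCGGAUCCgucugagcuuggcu
miR-434-3p: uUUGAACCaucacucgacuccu
miR-432: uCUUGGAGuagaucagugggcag
miR-136-5p: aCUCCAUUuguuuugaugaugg
These 6 share no seed. Annotated microRNA genes cover 8.4% of the exon bases of Rtl1. Reads of the 2 strands cannot be told apart anywhere in Rtl1, under those genes or outside them. Its few reads may therefore include maternal RNA of the opposite strand, and that part was not measured.

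Dio3, the deiodinase that inactivates thyroid hormone, had 1 read in control 2, 3 reads in knockout 2 and 0 in every other library (ENSMUSG00000075707, chr12:110279068-110281097, plus strand). A count of 0 allows 3 reads, or 0.0761 to 0.0831 FPKM for this gene, and both groups lay at or under that limit, so no ratio is given. Begain, a gene first described for a protein of neuronal synapses, bounds the set on the other side (ENSMUSG00000040867, chr12:109032187-109068217, minus strand). It stood at 0.553, 0.739 and 0.752 FPKM in controls 1, 2 and 3 and at 0.603, 0.573 and 0.406 FPKM in knockouts 1, 2 and 3. Knockout 3 was the lowest library, knockouts 1 and 2 lay just above control 1, and the groups overlapped. The means were 0.682 ± 0.111 FPKM and 0.527 ± 0.106 FPKM (SD, n = 3), a log2 change of -0.14 (SE 0.11). The change was -0.32 at a pseudocount of 0.1 and -0.37 by voom.

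In control ventricles, the order of the levels per length was Dlk1, Rian, Gm24564, Meg3, Mirg, Begain, Rtl1 and Dio3. The control ranges of Gm24564 and Meg3 overlapped, as did those of Mirg and Begain, so neither pair differed beyond its spread. The value of Gm24564 in that order rests on 3 to 5 reads per library. Dlk1 stood at the 89.2 percentile of the control means of all genes tested, Rian at 66.6, Meg3 at 29.9, Mirg at 6.40 and Begain at 5.96.

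The maternally expressed RNAs were compared with the paternally expressed genes in each library as the mean log2(FPKM + 1) of Meg3, Rian, Mirg and Gm24564 less that of Dlk1, Rtl1 and Dio3. This difference was 0.30, 0.09 and 0.21 in controls 1, 2 and 3 and 0.06, -0.09 and -0.12 in knockouts 1, 2 and 3. All 3 knockouts lay below all 3 controls, with means of 0.20 ± 0.11 and -0.05 ± 0.10 (SD, n = 3), or -0.25 from control to knockout. With Gm24564 and its 12 reads left out, and nothing else changed, the difference from control to knockout was 0.30, so the direction turned on that gene. For Meg3, Rian and Mirg against Dlk1 alone, another choice made after the values were seen, the difference was -3.11, -3.24 and -3.32 in controls and -2.67, -2.85 and -2.96 in knockouts. Here the knockouts lay above the controls, by 0.40. The mean over the 3 paternally expressed genes was 1.79 in controls and 1.75 in knockouts, with overlapping groups.

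Against Dlk1, both Meg3 and Rian stood higher in the knockout libraries. The ratio of Rian to Dlk1 was 0.310, 0.285 and 0.255 in controls 1, 2 and 3 and 0.524, 0.456 and 0.456 in knockouts 1, 2 and 3, a ratio of means of 1.69. The ratio of Meg3 to Dlk1 was 0.0651, 0.0642 and 0.0660 in controls and 0.0950, 0.0750 and 0.0781 in knockouts, a ratio of means of 1.27. Neither pair of groups overlapped. Meg3 and Dlk1 were both highest in control 3 among the controls, and the SD of their ratio over the 3 controls was 0.000863. Each of them taken alone had overlapping groups. These ratios use the values that chose the members and have no test.

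Genes around the members were examined over the window from 500 kb before Begain to 500 kb after Dio3. It held 157 annotated genes, of which 149 are no members. Of these 149, 17 passed the expression minimum, and limma called 0 higher and 0 lower, with 2 at an unadjusted p under 0.05 and 0 called by voom. Their median log2 change was -0.07, with a range of -0.71 in Gm25357 to 0.15 in Eml1. On the Begain side, Yy1, the gene of a zinc-finger transcription factor, stood at 19.5 ± 1.01 FPKM in controls and 18.5 ± 0.335 FPKM in knockouts (SD, n = 3, limma adjusted p = 0.630). Evl, an actin regulator, stood at 35.6 ± 1.76 and 35.9 ± 1.15 FPKM (adjusted p = 0.948 by limma), and Wars, a tRNA synthetase, at 23.5 ± 2.93 and 22.8 ± 1.15 FPKM (adjusted p = 0.905). On the Dio3 side, Ppp2r5c, a subunit of protein phosphatase 2A, stood at 24.6 ± 0.831 and 23.6 ± 0.186 FPKM (limma adjusted p = 0.694). The chaperone gene Hsp90aa1 stood at 253 ± 17.6 and 231 ± 22.1 FPKM (limma adjusted p = 0.522), and the dynein heavy chain gene Dync1h1 at 9.45 ± 1.23 and 9.95 ± 0.126 FPKM (adjusted p = 0.741).

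Among the 17 neighbours 2 had groups that did not overlap, against 21.4% of all genes tested, and neither passed the test. Eml1, which codes for a microtubule-binding protein, had means of 5.90 ± 0.268 FPKM in controls and 6.67 ± 0.447 FPKM in knockouts (SD, n = 3, limma adjusted p = 0.362). The processed pseudogene Gm6988 had means of 2.59 ± 0.135 and 1.84 ± 0.485 FPKM (limma adjusted p = 0.223), and its reads may be shared with its parent gene. The 7 others not yet named were Gm34220, Slc25a29, Slc25a47, Wdr25, Gm3379, Gm19605 and Wdr20, with log2 changes of -0.24 to 0.13 and overlapping groups.

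**Figure D4:**
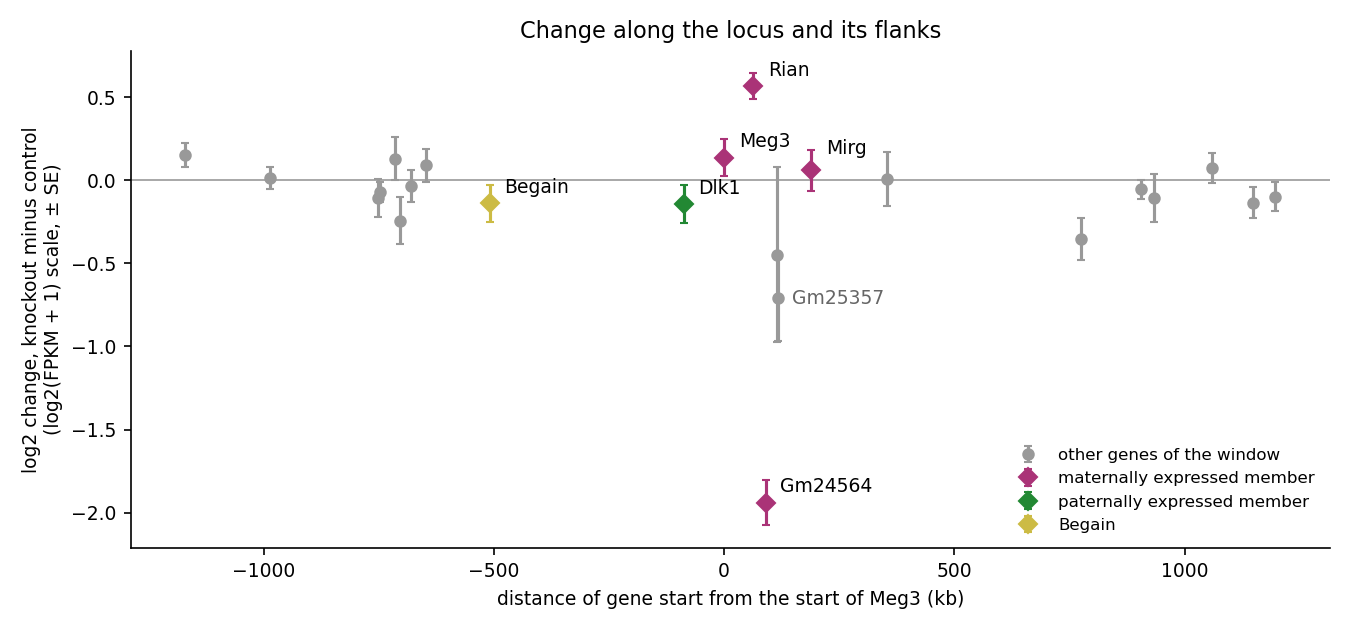
Log2 change (knockout minus control, log2(FPKM + 1) scale) with its SE for the 6 members and 17 other genes that passed the expression minimum, against the distance of each gene's start from the start of Meg3 in kb. Rian at 0.57 and Gm24564 at -1.94 lie apart from the other 21 genes, which run from -0.71 to 0.15.

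Genes whose profile over the 6 libraries was most like those of Meg3 and Dlk1 were ranked by Pearson r of log2(FPKM + 1). This is a description only, since the libraries differ in genotype, sex and depth. For Meg3 the nearest included Lyz1 (r = 0.982), Hgsnat (0.977), Tdrd3 (0.975) and Nudt5 (0.971), and 124 genes had an r above 0.9. For Dlk1 the 5 nearest were Prss35 (r = 0.994), Mgp (0.990), 4930579G18Rik (0.990), Itgb1 (0.982) and Fbxl20 (0.982), and 143 genes had an r above 0.9. Dlk1 and Meg3 had an r of 0.39 with each other, and Dlk1 and Rian an r of -0.28.

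The machinery that acts on the locus was read from lists of genes of known function. Of 19 tested genes that maintain imprints, limma called 0 in either direction, with 1 at an unadjusted p under 0.05 and 0 by voom, and their median log2 change was -0.03. The lowest p-values belonged to Atrx, a chromatin remodeller, at 4.14 ± 0.207 and 4.97 ± 0.383 FPKM (limma adjusted p = 0.234), and to Zfp57, a zinc-finger protein that protects imprints, at 7.17 ± 0.671 and 8.15 ± 0.215 FPKM (limma adjusted p = 0.347). Of 11 subunits of Polycomb repressive complex 2, limma called 0, with 2 at an unadjusted p under 0.05, and voom called 1 higher. Phf19, an accessory subunit, stood at 1.10 ± 0.151 and 1.88 ± 0.281 FPKM (limma adjusted p = 0.0836), and the core subunit Eed at 11.8 ± 0.318 and 10.3 ± 0.857 FPKM (limma adjusted p = 0.263).

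For the RNAs processed from the maternal transcript, 11 assembly and core factors of C/D box snoRNA particles had 0 limma calls, 1 unadjusted p under 0.05 and 0 voom calls, with a median log2 change of -0.12. Znhit6, an assembly factor, stood at 8.77 ± 0.102 and 7.51 ± 0.660 FPKM (limma adjusted p = 0.244), and the ATPase gene Ruvbl1 at 37.3 ± 4.35 and 32.6 ± 2.52 FPKM (limma adjusted p = 0.409). Of 9 tested genes of microRNA processing, limma and voom each called 0 and none had an unadjusted p under 0.05. Tarbp2 stood at 15.0 ± 0.810 and 13.6 ± 1.67 FPKM (limma adjusted p = 0.509), and Dgcr8 at 4.28 ± 0.328 and 3.93 ± 0.221 FPKM (limma adjusted p = 0.594).

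In the pathways of the paternally expressed genes, 1 of 26 tested Notch pathway genes other than Dlk1 was called by limma, and it was lower. Over all genes tested the share called was 2.37%. In this list 3 had an unadjusted p under 0.05, and voom called 0 higher and 2 lower. The limma call was Mfng, a glycosyltransferase that modifies Notch receptors, which fell from 6.30 ± 0.750 to 4.01 ± 0.441 FPKM (SD, n = 3, log2 change -0.54, SE 0.10, limma adjusted p = 0.0406). Its call was lost in each of the 6 fits without 1 library, with adjusted p-values of 0.0557 to 0.126. It was also lost with the sex score (limma adjusted p = 0.175) and kept by voom (adjusted p = 0.0205). The median log2 change of the list was 0.06. Of 16 tested genes of thyroid hormone handling, limma called 0, 2 had an unadjusted p under 0.05, and voom called 1 higher. Crym, which binds thyroid hormone in the cytosol, stood at 0.438 ± 0.174 and 1.07 ± 0.144 FPKM (limma adjusted p = 0.0847), and the retinoid X receptor gene Rxrg at 1.10 ± 0.417 and 0.531 ± 0.292 FPKM (limma adjusted p = 0.300). Crym passed the expression minimum only through the knockout group. MEF2 transcription factors are known to act on this locus in muscle. Of 8 tested genes of MEF2 factors and cofactors limma called 0, with 1 unadjusted p under 0.05 and 0 voom calls. Mef2c stood at 4.96 ± 0.190 and 5.91 ± 0.302 FPKM (limma adjusted p = 0.185), and the cofactor gene Hdac7 at 8.59 ± 0.912 and 9.74 ± 0.238 FPKM (limma adjusted p = 0.366).

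Genes that share a retrotransposon origin with Rtl1, or an imprinted status with the locus, contained 6 limma calls, all higher. Of all genes tested, 1.91% were called higher and 0.466% lower, so most calls of any kind were higher (270 of 336). Nothing is read from the shared direction of these 6. Of 10 tested Ty3/gypsy-derived genes, 3 rose and 0 fell, with a median log2 change of 0.11. Zcchc12 rose from 3.26 ± 0.714 to 9.32 ± 0.568 FPKM (SD, n = 3), a ratio of 2.86 (limma adjusted p = 0.00354), and its call was kept in all 6 fits without 1 library. Rtl8c rose from 59.4 ± 2.49 to 77.0 ± 0.728 FPKM (limma adjusted p = 0.0247), a call lost without control 1 or any 1 knockout library (adjusted p up to 0.113). Zcchc18 rose from 0.409 ± 0.0856 to 1.07 ± 0.0991 FPKM (limma adjusted p = 0.0396), a call lost without any 1 library (adjusted p = 0.0572 to 0.156). It passed the expression minimum only through the knockout group, so its call is a description and adds no support. These 3 genes all lie on the X chromosome, and with the sex score as a covariate only Zcchc12 was called (limma adjusted p = 0.0215).

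Imprinted genes elsewhere in the genome showed 1 limma call among 14 tested maternally expressed genes and 2 among 20 tested paternally expressed ones. Over all genes tested the share called was 2.37%. Mest, a paternally expressed gene of the hydrolase family, rose from 314 ± 12.8 to 483 ± 4.47 FPKM (SD, n = 3), a ratio of 1.54 (limma adjusted p = 0.00644), and its call was kept in all 6 fits without 1 library, with an adjusted p of 0.0546 under the sex score. Snrpn, a paternally expressed splicing factor gene, rose from 10.7 ± 0.213 to 16.6 ± 1.85 FPKM, a ratio of 1.54 (limma adjusted p = 0.0172), and its call was lost without control 1, control 2, knockout 1 or knockout 2 (adjusted p up to 0.081). Other genes overlap 23.1% of the exon bases of Mest and 34.1% of those of Snrpn. Phlda2, a maternally expressed growth regulator of the placenta, stood at 0.773, 0.1003 and 0.185 FPKM in controls 1, 2 and 3 and at 3.16, 1.61 and 1.998 FPKM in knockouts 1, 2 and 3. It rose by a ratio of 6.39 (limma adjusted p = 0.0348), a call lost in every fit without 1 library other than control 1 (adjusted p up to 0.104). Phlda2 passed the expression minimum only through the knockout group, so its call is a description and adds no support. The median log2 change was 0.02 over the maternally expressed list and 0.11 over the paternally expressed one.

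Other cell types were checked through their markers. Among 12 markers of endothelium and endocardium, Cldn5, a tight junction protein, fell from 12.6 ± 1.33 to 6.69 ± 0.918 FPKM (SD, n = 3, limma adjusted p = 0.0121), a call kept in all 6 fits without 1 library. The list as a whole summed to 173 to 234 FPKM in controls and 195 to 239 FPKM in knockouts, with 0 called higher by limma. By voom 1 gene of the list was higher and 1 lower. Among 7 tested markers of smooth muscle and pericytes, Kcnj8, a potassium channel of pericytes, fell from 3.57 ± 0.313 to 1.96 ± 0.197 FPKM (SD, n = 3, limma adjusted p = 0.0147). That call was lost without control 2, knockout 1 or knockout 2 (adjusted p up to 0.0657), and the sums were 110 to 162 and 157 to 185 FPKM. In this list voom called 0 higher and 2 lower. Sums over 8 markers of neural crest and Schwann precursors were 28.4 to 46.0 FPKM in controls and 45.0 to 51.4 in knockouts, and 12 neuronal markers summed to 4.02 to 6.04 and 4.52 to 5.91 FPKM. Sums over 12 skeletal muscle markers were 166 to 266 FPKM in controls and 135 to 170 FPKM in knockouts. The 8 lung and foregut markers, with Nkx2-1 and Foxa1 at 0 in every library, summed to 0.151 to 0.677 FPKM in controls and 1.246 to 1.71 FPKM in knockouts, and stood apart by group as Rian did. The 1 gene called among them was Epcam (limma adjusted p = 0.0423), a call lost without any 1 library (adjusted p = 0.0504 to 0.125) and with the sex score. Epcam passed the expression minimum only through the knockout group, so its call is a description and adds no support. Limma called no marker of cardiomyocytes, epicardium, mesenchyme, skeletal muscle, neurons, neural crest, liver, erythroid or immune cells; at an unadjusted p under 0.05 these lists held 2 cardiomyocyte, 2 skeletal muscle and 2 immune genes, and voom called 0 of them. The part of these cells in the levels of Rian was not tested.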

How the data were processed

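Gene expression was measured by RNA-seq in 3 control and 3 LSD1 conditional knockout samples of E12.5 ventricles. Per the labels' protocols, TRIzol RNA was made into NEBNext Ultra RNA libraries. In the submitters' processing notes stand HISAT2 2.0.5, featureCounts 1.5.0-p3, fastp, CASAVA and the genome build mm10, without an order or an annotation release. The deposited values are FPKM made by the authors, in 1 table of 54532 genes. Names, exons and coordinates came from GENCODE M21, which held 54409 of the identifiers.

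Multiplied by exon length, FPKM moved in equal steps of 1 read, with 98.1% to 98.5% of genes under 30 reads within 0.02 of a whole read. A read in a gene of 1 kb stands for 0.0515 to 0.0562 FPKM. The 14149 genes averaging 0.5 FPKM or more were fitted by limma 3.58.1 (R 4.3.3) on the log2(FPKM + 1) scale. Genotype was the single term, the variance prior followed a trend with the mean, tests were two-sided, and p-values were adjusted over all these genes by the Benjamini-Hochberg method. This scale understates the change of low genes. The fit was tested on simulated data. Floors and intervals cover counting error only.

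The members and lists were chosen with earlier results of these data known. Counts at an unadjusted p under 0.05 are given without the share over all genes tested, so no excess is read from them. Beside the members, the text names Kdm1a, neighbours that passed the expression minimum, the called genes of each pathway list (at most 4) or else the 2 with the lowest p, and the 5 genes most like Meg3 and Dlk1, of which 1 is not reported here. Called genes of the marker lists are named too, a choice made after their values were seen. The list name Zac1 matched no identifier. Deviations from the group means had r of -0.0021, 0.14 and 0.16 between same-numbered libraries and of -0.19 to 0.08 between the others. All are weak, and nothing in the labels pairs the libraries.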

Additional observations from a re-analysis of the deposited data

How the results depend on the processing

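Alternatives were other pseudocounts, scalings, filters, a replicate block and leaving out each library. Voom on recovered reads, the sex score, library weights and the 2 indices without the snoRNA were chosen after seeing the data. The planned count models were not run, since the table holds FPKM and no counts. Against 270 higher and 66 lower genes, leaving out 1 library gave 109 (without knockout 2) to 281 (without control 3) higher and 23 to 113 lower. Higher and lower genes numbered 110 and 12 with no filter, 132 and 48 with a minimum mean of 5 FPKM, 409 and 102 by voom, 93 and 23 with the sex score, 354 and 112 with library weights, 369 and 40 after rescaling to TPM and 395 and 49 after rescaling without haemoglobin and mitochondrial genes. The replicate block gave 220 and 64, with 1 member higher and 1 lower, and an index of -0.25. Members called higher numbered 0 to 1 over fits without 1 library and 0 with the sex score. Members called lower numbered 1 in each of those 6 fits, 0 by voom and 0 at 5 FPKM, where Gm24564 was not tested.

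The maternal minus paternal index, -0.25, was -0.97 at a pseudocount of 0.1 and -0.48 in TPM, and kept its sign in the other planned settings run (-0.20 to -0.31 without 1 library); the filters on low values do not apply to it. It reversed to 0.30 when only Gm24564 was left out, and to 0.40 for Meg3, Rian and Mirg against Dlk1. Rian was called in 12 of 16 alternatives, with log2 changes of 0.53 to 0.67, and Gm24564 in 14 of the 15 that tested it. For Gm24564 the exception was voom, which weights genes by depth, and the other calls rest on the same few reads and add no support. The log2 change ran from -0.23 to -0.02 for Dlk1, 0.07 to 0.24 for Meg3, -0.01 to 0.15 for Mirg and -0.37 to -0.07 for Begain. Depth limits Gm24564, Rtl1 and Dio3 most.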
